A study of Mus musculus with 12 samples.

Results

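Activins, their extracellular antagonists, their receptors and the distant relative growth differentiation factor 15 were examined in cultured mouse cardiac fibroblasts. The 10 genes were taken by name from the deposited table of 35275 genes. They were the activin subunits Inhba and Inhbb, the follistatin family members Fst, Fstl3 and Fstl1, the receptors Acvr1, Acvr1b, Acvr2a and Acvr2b, and Gdf15. All 10 were among the 15150 genes that passed the filter on low counts. RNA-Seq had been performed on 12 libraries, with 3 libraries in each of 4 conditions. All cells were cardiac fibroblasts from hearts of 12-week-old C57BL/6 Smad7 fl/fl mice, in which the Smad7 gene is flanked by loxP sites, used at passage 2. Smad7-KO cells had received an adenovirus that expresses Cre recombinase, and control cells a control adenovirus. The control virus expresses GFP according to the labels and is called empty in the study's methods. Infection lasted 48 hours at a multiplicity of 100 in both arms. The unstimulated cells of each genotype received no further treatment, and the others received TGF-β1 at 10 ng/ml. One label states 2 hours of stimulation and a different one 4 hours. The deletion was made in culture and not in the living heart, and the number of animals behind each library is not given in the sources used here.

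Activins are dimers of inhibin β subunits. The product of Inhba forms activin A and that of Inhbb forms activin B. They bind type II receptors, encoded by Acvr2a and Acvr2b, which then recruit the type I receptor encoded by Acvr1b and activate Smad2 and Smad3, the same transducers that TGF-β uses. Follistatin, the product of Fst, and the related Fstl3 wrap around activins and keep them from their receptors. Fstl1 shares a follistatin domain but belongs to the SPARC family, and is known as a secreted factor of the injured heart. Acvr1 encodes a type I receptor used mainly by BMPs that can also hold activin A in a nonsignaling complex. Gdf15 is a stress-induced cytokine that acts through the receptor Gfral in the brainstem. Smad7 is an inhibitory Smad that is induced by TGF-β and dampens receptor signaling of the family.

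The targeted gene was checked first. Smad7 averaged 74.4 ± 2.94 CPM (SD, n = 3; CPM being the count scaled to library size with TMM factors) without stimulation in control, against 29.4 ± 1.48 CPM after deletion, or 39.5% of control. After TGF-β1 the control libraries averaged 146 ± 4.24 CPM, and the Smad7-KO libraries 76.8 ± 5.89 CPM, or 52.7% of control. Library totals ranged from 19056916 to 25371321 counts (median 22660845). Unstimulated control library 2 stood apart. Each gene's log2 CPM was taken as a deviation from its mean over the 12 libraries. The median deviation of long genes minus that of short genes was −1.09 in library 2, against −0.41 to 0.37 in the other 11 libraries. Replicates of the unstimulated control also varied most, with a biological coefficient of variation (variation left after counting noise) of 0.333. It was 0.138 after TGF-β1, and 0.0529 and 0.0996 for the corresponding Smad7-KO conditions. Fibroblast markers summed to 12127 to 14527 CPM in unstimulated and 12776 to 13061 CPM in TGF-β1 control libraries. For Smad7-KO these sums were 11742 to 12452 CPM and 10942 to 11082 CPM. Fibroblast sums of the genotypes were thus separate after TGF-β1 only, where Smad7-KO was the lower. None of the 12 markers was at 0. In each state, deletion went with a called rise of 2 fibroblast markers and a called fall of 3, beside the shares of all genes given below. Macrophage markers, mainly Lyz2, summed to between 16105 and 25846 CPM in unstimulated and between 16212 and 18844 CPM in TGF-β1 control libraries. In the corresponding Smad7-KO libraries they summed to between 22974 and 25227 CPM and between 22362 and 25356 CPM. In every library this sum exceeded that of the fibroblast markers. Sums over different genes do not give the share of a cell type. Of 12 tested macrophage markers 6 were called higher in unstimulated and 5 in TGF-β1-stimulated Smad7-KO cells, against 12.1% and 5.72% of all genes. The number called lower was 0 in each, against 13.7% and 7.23%. Their median log2 fold changes were 0.30 and 0.41. Single markers disagreed. Itgam averaged 253 and 313 CPM in control and 648 and 635 CPM in Smad7-KO libraries, without and with TGF-β1. C1qa averaged 2012 and 1715 CPM in control and 1662 and 1842 CPM in Smad7-KO libraries. Without stimulation C1qc, Cd14 and Cx3cr1 also had lower means in Smad7-KO libraries, and the remaining macrophage markers had higher ones. Endothelial markers summed to between 297 and 348 CPM in the 6 control libraries and to between 52.0 and 62.3 CPM in the 6 Smad7-KO libraries. Mesothelial markers summed to between 178 and 211 CPM in unstimulated and between 191 and 200 CPM in TGF-β1 control libraries. In the corresponding Smad7-KO libraries they summed to between 137 and 167 CPM and between 131 and 143 CPM. Cardiomyocyte markers summed to between 34.0 and 78.1 CPM and between 29.0 and 33.2 CPM in control. They summed to between 18.9 and 25.7 CPM and between 19.1 and 22.4 CPM in Smad7-KO libraries. Yet the 5 tested cardiomyocyte markers had a median log2 fold change of 1.09 without stimulation. Smooth muscle and pericyte markers summed to between 34.5 and 69.0 CPM, and the genotypes overlapped without stimulation but not with TGF-β1. Differences in markers of several cell types thus accompany every comparison of Smad7-KO with control below. In both states 8 of 11 tested endothelial markers were called lower and 1 higher in Smad7-KO cells, beside the shares of all genes given above. The part of any of these cell types in the levels of the 10 genes was not tested. In bulk RNA, fewer cells of a type and less RNA per cell cannot be told apart.

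The sequences upstream of the genes that changed most with TGF-β1, and of Inhba for contrast, are shown here because the CAGA box is the classical DNA element of Smad3. RefSeq promoters (GRCm38.p6) were matched for 9 of the 10 genes, with 2 start sites for Gdf15. Fst had no entry. The 250 bases before each start are printed 5′ to 3′ on the strand of the gene, and capitals mark CAGAC or its reverse complement GTCTG.
Inhba, chr13:16011601-16011850, plus strand: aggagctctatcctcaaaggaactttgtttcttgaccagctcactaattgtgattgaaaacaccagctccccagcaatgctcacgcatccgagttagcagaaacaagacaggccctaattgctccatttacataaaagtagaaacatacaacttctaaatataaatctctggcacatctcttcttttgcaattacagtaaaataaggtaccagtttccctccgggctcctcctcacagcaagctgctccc
Inhbb, chr1:119422249-119422498, minus strand: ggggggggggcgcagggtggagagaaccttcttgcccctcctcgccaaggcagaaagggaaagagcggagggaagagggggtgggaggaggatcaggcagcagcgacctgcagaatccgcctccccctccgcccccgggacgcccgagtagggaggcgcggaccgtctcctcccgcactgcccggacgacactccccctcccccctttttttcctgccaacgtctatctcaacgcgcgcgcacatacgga
Fstl3, chr10:79777024-79777273, plus strand: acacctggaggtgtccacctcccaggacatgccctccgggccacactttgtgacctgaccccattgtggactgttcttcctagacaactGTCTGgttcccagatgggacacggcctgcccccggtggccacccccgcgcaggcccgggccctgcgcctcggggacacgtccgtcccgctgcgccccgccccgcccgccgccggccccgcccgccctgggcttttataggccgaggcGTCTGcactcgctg
Gdf15, outer start, chr8:70632457-70632706, minus strand: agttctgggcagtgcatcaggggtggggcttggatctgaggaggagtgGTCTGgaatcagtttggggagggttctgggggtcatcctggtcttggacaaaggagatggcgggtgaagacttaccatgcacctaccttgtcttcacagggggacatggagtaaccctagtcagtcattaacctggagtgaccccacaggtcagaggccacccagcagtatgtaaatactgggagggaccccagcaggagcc
The Fstl3 promoter held 2 CAGAC matches, which begin 161 and 14 bases before the start. Both Gdf15 starts, Acvr2a and Acvr2b held 1 each, whereas Inhba, Inhbb, Fstl1, Acvr1 and Acvr1b held none. CAGAC was present in 42.2% of the 32851 promoters of the same length, so a match is common. The Inhba promoter had the lowest GC content of the set, at 43.2%, against 85.6% for Acvr1. A further 7 elements, which may overlap one another, were searched on both strands. The E-box CAGGTG was found in Fstl3 and at the inner start of Gdf15, and in 17.2% of all promoters. The palindrome GTCTAGAC (0.167% of all promoters), the AP-1 site TGANTCA (6.75%), the CRE TGACGTCA (1.55%) and its half-site TGACG (17.8%), the ATF4 element TTNCATCA (3.45%) and GGCGCC (9.59%) had no match in any of the 9 genes. These are matches of letters only, in windows that leave out distal enhancers.

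TGF-β1 raised the antagonist transcripts and lowered that of the activin B subunit. Fst, Fstl3, Fstl1 and Acvr1 rose in control cells, whereas Inhbb and Gdf15 fell. With edgeR's quasi-likelihood test and Benjamini-Hochberg adjustment over the 15150 genes tested, 6 of the 10 genes had an adjusted p of 0.05 or less, which is the meaning of "called" throughout. Of all genes tested, 8.37% were called in this comparison, 5.04% higher and 3.33% lower. The libraries of the groups did not overlap for 6 of the 10 genes, against 19.8% of all genes. In Smad7-KO cells 5 of the 10 were called, 4 higher and 1 lower, against 10.2% of all genes, of which 5.33% were higher and 4.9% lower. There 9 of the 10 genes did not overlap between groups, against 39.0% of all genes. Median log2 fold changes of the 10 genes were 0.24 in control and 0.17 in Smad7-KO cells, beside −0.03 and −0.01 over all genes tested.

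Fst was lower in Smad7-KO than in control cells in both states, and Inhbb and Acvr2b were higher in unstimulated cells. In unstimulated cells 3 of the 10 were called, 2 higher and 1 lower, against 25.8% of all genes (12.1% higher and 13.7% lower), a share close to that background. In TGF-β1-stimulated cells only Fst was called, 1 of 10 against 13.0% of all genes, of which 5.72% were higher and 7.23% lower, again close to the background. Libraries did not overlap for 3 of the 10 genes in unstimulated cells, against 41.3% of all genes, and for 7 of 10 in stimulated cells, against 44.9%. Median log2 fold changes of the 10 were −0.09 in both comparisons, beside −0.02 over all genes tested in each. The 4 comparisons share condition groups in pairs, so their values are given side by side and are not independent of each other.

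**Figure D1:**
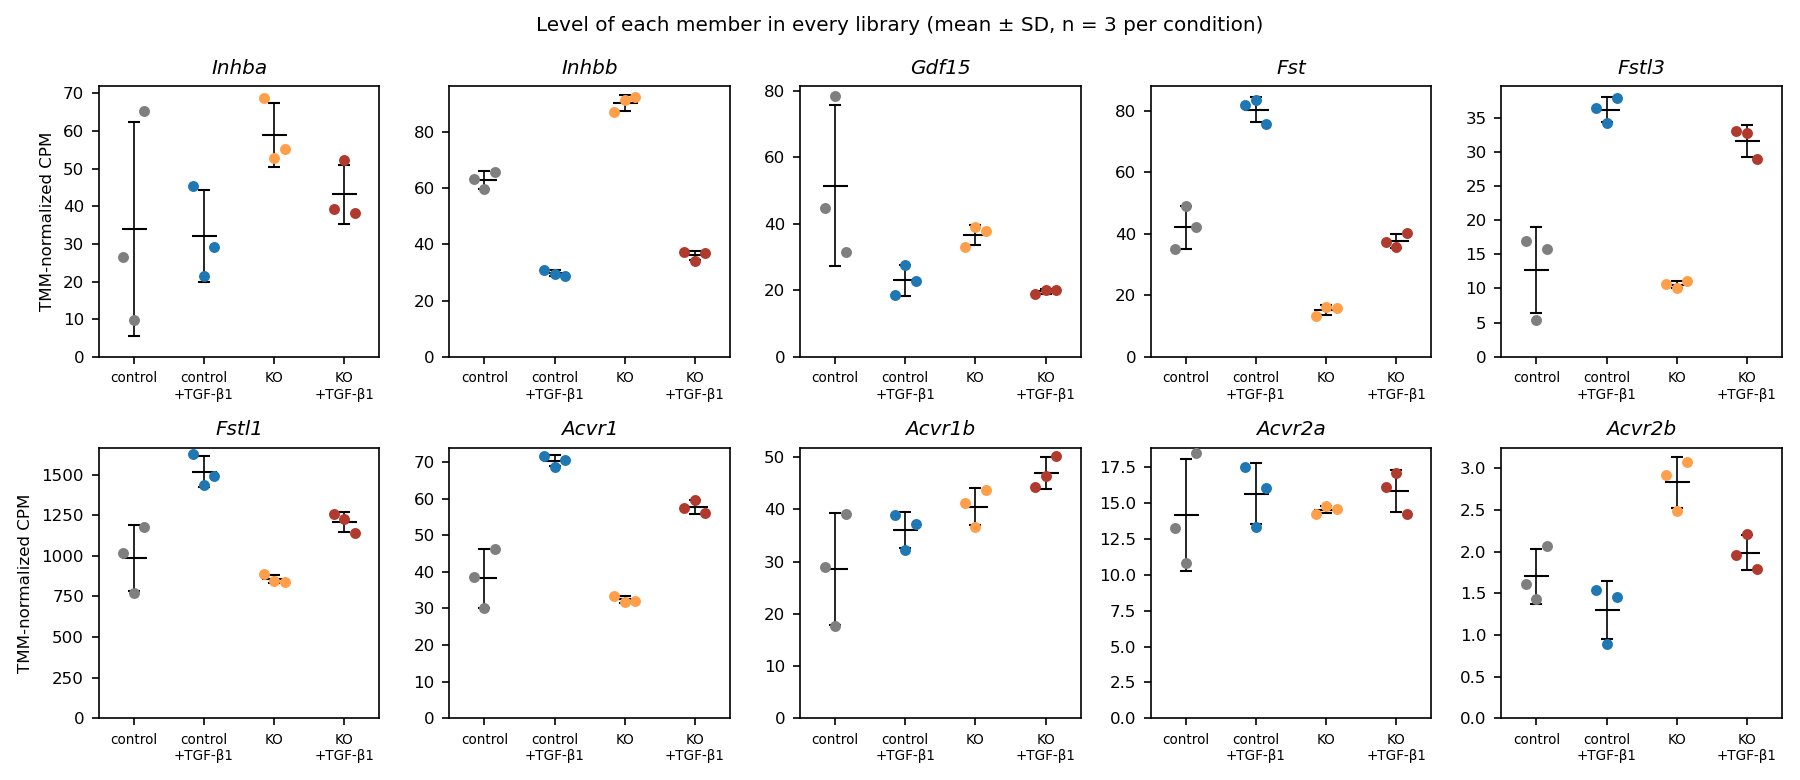
Level of each gene in every library, as TMM-normalized CPM on a linear axis from 0, with points for libraries 1 to 3 from left to right and the mean ± SD (n = 3) of each condition. Fst is highest in TGF-β1 control libraries (75.8 to 83.7 CPM) and lowest in unstimulated Smad7-KO libraries (13.3 to 16.3 CPM), and Inhba is scattered over 9.83 to 65.3 CPM in unstimulated control libraries.

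**Figure D2:**
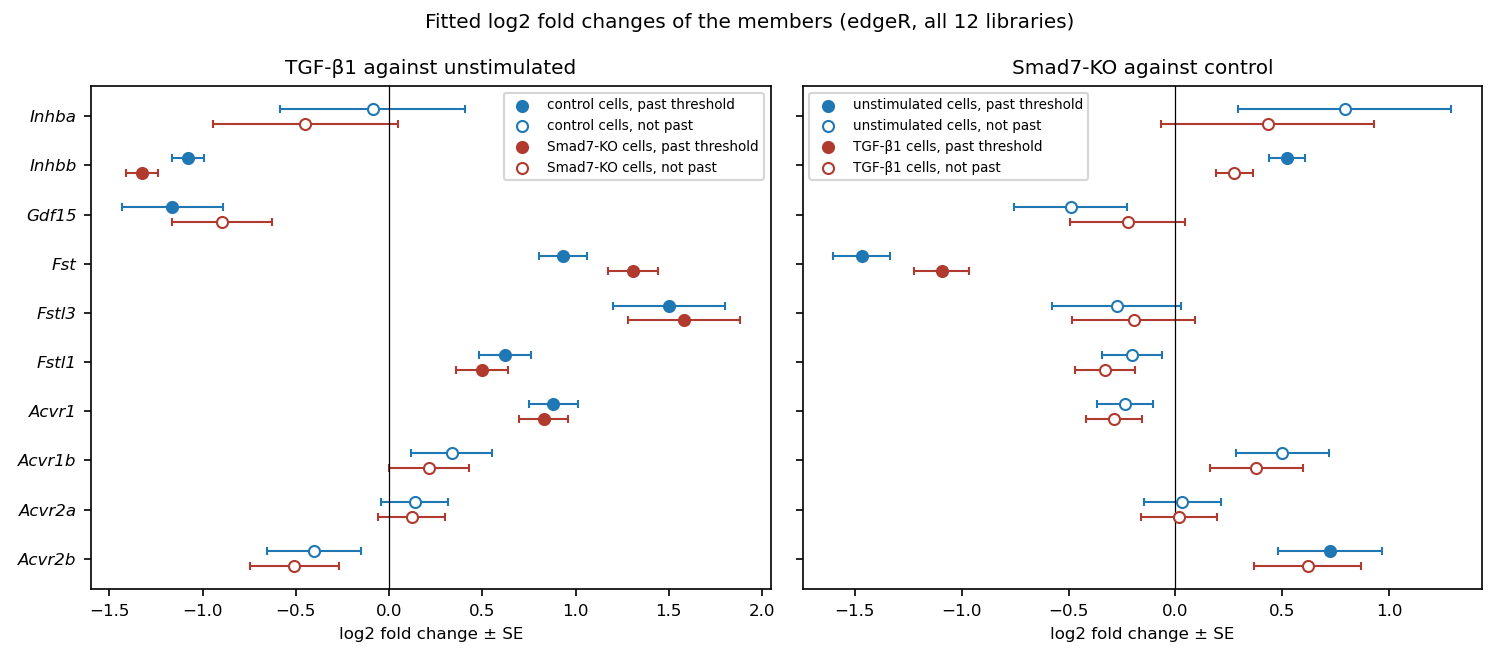
Fitted log2 fold change ± SE of each gene for TGF-β1 against unstimulated cells (left) and Smad7-KO against control (right). Filled points had an adjusted p of 0.05 or less. Fst lies on opposite sides of 0 in the panels, at 0.93 and 1.31 on the left and −1.47 and −1.09 on the right.

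Inhbb (chr1:119415465-119422248, minus strand, GRCm38.p6), which encodes the subunit of activin B, fell with TGF-β1 in both genotypes. It was at 63.0, 59.6 and 65.8 CPM in unstimulated control libraries and at 31.0, 29.4 and 28.8 CPM in TGF-β1 control libraries. Every stimulated library was below every unstimulated one, with little spread within either group. The mean dropped to 47.4% of the unstimulated level, a log2 fold change of −1.08 (SE 0.087; edgeR adjusted p = 1.42e-05). In Smad7-KO cells it was at 87.0, 91.3 and 92.3 CPM without and at 37.1, 34.1 and 36.8 CPM with TGF-β1. Again no stimulated library reached an unstimulated one. The level dropped to 39.9% (log2 fold change −1.32, SE 0.0871; edgeR adjusted p = 2.73e-06). Both of these calls held with each of the 12 libraries left out and under all 10 other settings tried.

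Without stimulation, Inhbb in Smad7-KO cells was at 144% of the control level. All 3 Smad7-KO libraries exceeded all 3 control libraries, with a log2 fold change of 0.52 (SE 0.0856; edgeR adjusted p = 0.00217). At 4255 bases Inhbb is in the longest of 3 equal length classes of the tested genes, whose median in this comparison was 0.29. Once each library's trend on gene length was removed the difference was 0.35 (edgeR adjusted p = 0.00996). When edgeR was run on the 6 libraries of the comparison alone it missed the threshold (adjusted p = 0.054). After TGF-β1 the Smad7-KO libraries were again all higher, at 121% of control, but the difference of 0.28 was not called (edgeR adjusted p = 0.058). DESeq2 on all 12 libraries called it (adjusted p = 0.00495).

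Inhba (chr13:16011851-16027211, plus strand), the activin A subunit, was not called in any comparison. Its unstimulated control libraries were at 26.6, 9.83 and 65.3 CPM, and its TGF-β1 control libraries at 45.4, 21.5 and 29.2 CPM. Smad7-KO libraries were at 68.8, 52.8 and 55.4 CPM without and at 39.3, 52.2 and 38.1 CPM with TGF-β1. The unstimulated control libraries thus spanned nearly the whole range of the gene, while the Smad7-KO libraries stayed in its upper part. Unstimulated Smad7-KO libraries averaged 174% of control, a log2 fold change of 0.79 (SE 0.498; edgeR adjusted p = 0.234). Without unstimulated control library 3, the highest of its group, the fold change was 1.68 (edgeR adjusted p = 0.00358), and without library 2, the lowest, it was 0.36 (edgeR adjusted p = 0.485). After TGF-β1 the Smad7-KO difference was 0.43 (edgeR adjusted p = 0.582). TGF-β1 gave log2 fold changes of −0.09 in control (edgeR adjusted p = 0.944) and −0.45 in Smad7-KO cells (edgeR adjusted p = 0.76). In Smad7-KO cells every stimulated library lay below every unstimulated one. There the gene was called only by the fits on those 6 libraries, with adjusted p values of 0.0287 in edgeR and 0.00364 in DESeq2.

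Within control cells, Inhba followed a property of the library. Ordered by the difference between long and short genes, the 6 control libraries ran from −1.09 to 0.24, and Inhba rose along the same order as 9.83, 21.5, 26.6, 29.2, 45.4 and 65.3 CPM. Inhba itself, at 1957 bases, belongs to the shortest of the 3 length classes. Macrophage markers summed to 25846 CPM in the control library with the least Inhba and to 16105 CPM in the one with the most. Endothelial markers summed to 341 and 297 CPM in these libraries. In Smad7-KO libraries macrophage sums of 22362 to 25356 CPM went with Inhba at 38.1 to 68.8 CPM. There Inhba rose along the order of the long-minus-short difference within each condition, but not over both conditions together. What the library property and the marker levels contribute to Inhba was not tested. Genes with the most similar profile over the 12 libraries, by root mean square difference of centred log2 CPM among 12069 genes, were Klf7 (0.10), Ndst1 (0.12) and Nynrin (0.16), beside a spread of 0.76 for Inhba itself. For Inhbb they were Ehd4 (0.12), Ptpro (0.13) and Nrros (0.13), beside 0.64.

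**Figure D3:**
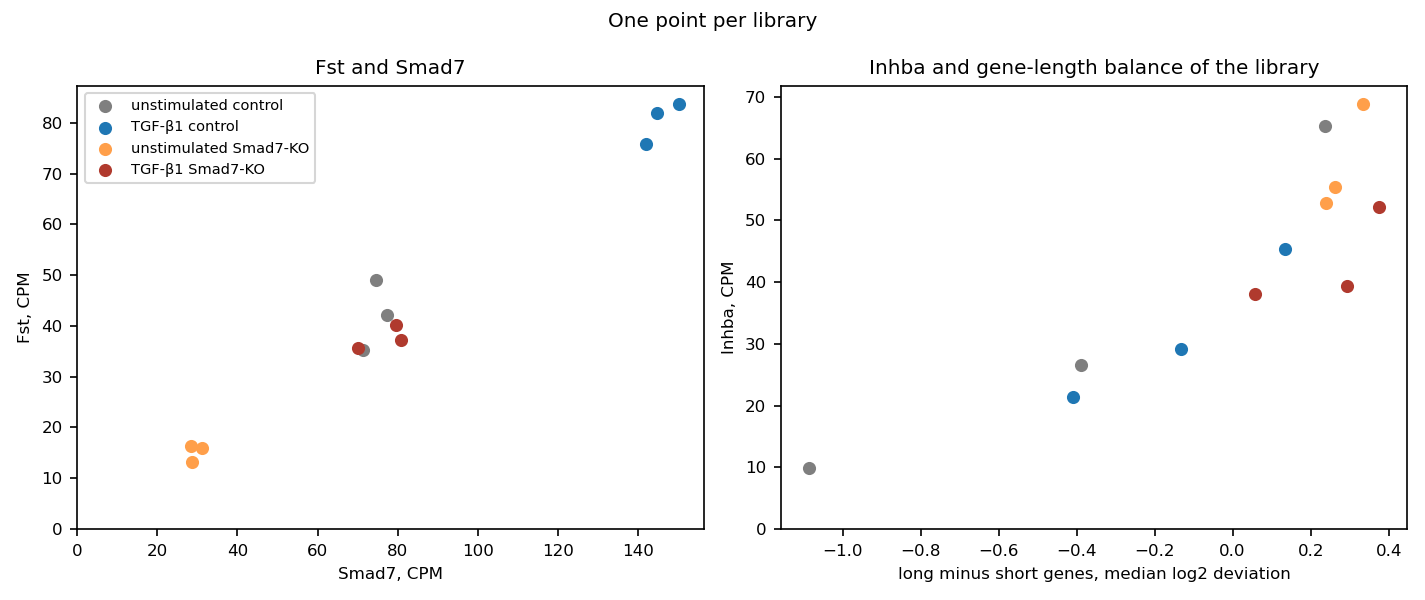
One point per library, colored by condition. Left, Fst against Smad7, both in CPM, with points that run from unstimulated Smad7-KO (Fst 13.3 to 16.3) to TGF-β1 control libraries (75.8 to 83.7). Right, Inhba in CPM against the difference between the median log2 deviations of long and short genes, where the unstimulated control libraries spread from −1.09 to 0.24.

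Fst (chr13:114452262-114458730, minus strand), the gene of follistatin, had the largest Smad7-KO differences of the 10 genes in both states. Unstimulated control libraries were at 35.2, 49.0 and 42.1 CPM, and TGF-β1 control libraries at 81.8, 83.7 and 75.8 CPM. Unstimulated Smad7-KO libraries were at 13.3, 16.3 and 16.1 CPM, and TGF-β1 Smad7-KO libraries at 37.3, 35.7 and 40.2 CPM. Stimulated Smad7-KO libraries thus lay in the range of unstimulated control libraries, and no other pair of conditions overlapped. TGF-β1 raised Fst to 191% in control cells (log2 fold change 0.93, SE 0.129; edgeR adjusted p = 0.000698) and to 248% in Smad7-KO cells (1.31, SE 0.132; edgeR adjusted p = 6.19e-05). Smad7-KO cells held 36.1% of the control level without stimulation (−1.47, SE 0.133; edgeR adjusted p = 5.06e-05) and 46.9% with it (−1.09, SE 0.129; edgeR adjusted p = 0.000465). All 4 calls held in each of the 12 fits that left out a library and under all 10 other settings. With the length trend removed the Smad7-KO differences were −1.35 and −0.97.

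Of 12069 genes compared, the one with the profile most like Fst was Smad7 itself, with a root mean square difference of 0.14 on the log2 scale beside a spread of 0.86 for Fst. Bdnf (0.20) and Cyr61 (0.24) came next. Fst CPM amounted to 56.5% ± 8.33 of Smad7 CPM in unstimulated control libraries (SD, n = 3) and to 55.2% ± 1.60 in TGF-β1 control libraries. The share was 51.8% ± 5.56 in unstimulated and 49.2% ± 2.66 in TGF-β1 Smad7-KO libraries. Over all 12 libraries it stayed between 46.2% and 65.7%. Smad7 is set beside Fst here as the most similar profile, so a steady share restates that choice. Whether Fst depends on Smad7 was not tested. The points share library, depth and scaling, and the likeness is a description.

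Fstl3 (chr10:79777272-79782630, plus strand), the other secreted activin antagonist, showed the largest response to TGF-β1 of the 10 genes. It was at 16.9, 5.43 and 15.8 CPM in unstimulated and at 36.4, 34.2 and 37.8 CPM in TGF-β1 control libraries. All stimulated libraries were at least as high as 34.2 CPM, and unstimulated library 2, the one that stands apart, was the lowest. The log2 fold change was 1.50 (SE 0.299; edgeR adjusted p = 0.0079), although edgeR on these 6 libraries alone did not call it (adjusted p = 0.129). In Smad7-KO cells Fstl3 went from 10.6, 10.0 and 11.0 CPM to 33.0, 32.7 and 28.9 CPM. The stimulated group was far above the unstimulated one, at 299% (1.58, SE 0.301; edgeR adjusted p = 0.00527). Smad7-KO against control was not called, with log2 fold changes of −0.28 (edgeR adjusted p = 0.493) and −0.20 (edgeR adjusted p = 0.674). Without unstimulated control library 2 the unstimulated difference was −0.63 (edgeR adjusted p = 0.00165). With the length trend removed it was −0.12 (edgeR adjusted p = 0.806), and with both removed −0.50 (edgeR adjusted p = 0.00398). The shortest length class, to which Fstl3 belongs, had a median of −0.39 in this comparison. The oppositely oriented neighbor Prss57, which overlaps Fstl3, had 0 to 3 counts per library.

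Fstl1 (chr16:37776873-37836514, plus strand) was the most abundant of the 10 genes. It was at 1016, 769 and 1174 CPM in unstimulated and 1624, 1438 and 1490 CPM in TGF-β1 control libraries, with no overlap. Its rise to 154% (log2 fold change 0.62, SE 0.14; edgeR adjusted p = 0.0162) was no longer called without TGF-β1 control library 1 (edgeR adjusted p = 0.0738) or library 3 (edgeR adjusted p = 0.0545), nor by the fits on these 6 libraries alone (adjusted p = 0.215 in edgeR and 0.0565 in DESeq2). In Smad7-KO cells it rose from 886, 844 and 838 CPM to 1258, 1226 and 1140 CPM, or 141%. That difference of 0.50 passed the threshold narrowly (edgeR adjusted p = 0.0443), was called in 2 of the 12 fits that left out a library and under 7 of the 10 other settings, and had an adjusted p of 0.059 with a replicate block. The Smad7-KO differences were −0.20 (edgeR adjusted p = 0.274) without and −0.33 (edgeR adjusted p = 0.147) with TGF-β1. With the length trend removed they were −0.30 (edgeR adjusted p = 0.0173) and −0.34 (edgeR adjusted p = 0.00945).

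Among the receptors, Acvr1 (chr2:58388644-58567157, minus strand) responded to TGF-β1. It was at 38.5, 30.0 and 46.1 CPM in unstimulated and 71.7, 68.7 and 70.5 CPM in TGF-β1 control libraries. In Smad7-KO cells it went from 33.5, 31.8 and 32.1 CPM to 57.4, 59.7 and 56.0 CPM. Stimulated and unstimulated libraries were clearly apart in both genotypes. Levels were 184% in control (log2 fold change 0.88, SE 0.131; edgeR adjusted p = 0.0012) and 178% in Smad7-KO cells (0.83, SE 0.132; edgeR adjusted p = 0.00151), although edgeR on the 6 control libraries alone did not call the former (adjusted p = 0.0604). The Smad7-KO differences were −0.24 without stimulation (edgeR adjusted p = 0.185) and −0.29 with it (edgeR adjusted p = 0.172). Without unstimulated control library 2 the former was −0.38 (edgeR adjusted p = 0.014). With TGF-β1 all Smad7-KO libraries lay below all control ones. That difference was called in 1 of the 12 fits that left out a library and under 3 of the 10 other settings. These included the fits on those 6 libraries alone (adjusted p = 0.0189 in DESeq2 and 0.0282 in edgeR).

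Acvr1b (chr15:101174067-101213679, plus strand), the type I receptor of activins, was not called in any comparison. It ranged over 17.7 to 39.1 CPM in unstimulated control, 32.3 to 38.9 in TGF-β1 control, 36.7 to 43.6 in unstimulated Smad7-KO and 44.3 to 50.2 CPM in TGF-β1 Smad7-KO libraries. The last group lay above all others. Its Smad7-KO differences were 0.50 (edgeR adjusted p = 0.101) and 0.38 (edgeR adjusted p = 0.269), where the longest of the 3 length classes, to which it belongs, had medians of 0.29 and 0.17. Without unstimulated control library 3 the former was 0.80 (edgeR adjusted p = 0.00349), and the response to TGF-β1 in control cells went from 0.34 (edgeR adjusted p = 0.444) to 0.63 (edgeR adjusted p = 0.0286). The Smad7-KO difference with TGF-β1 was called in 1 of the 12 fits that left out a library and under 3 of the 10 other settings. These included the fits on those 6 libraries alone (adjusted p = 0.00609 in DESeq2 and 0.0173 in edgeR).

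The type II receptors differed in level and in pattern. Acvr2a (chr2:48814109-48903269, plus strand) averaged 14.2 ± 3.89 and 15.7 ± 2.14 CPM in control libraries without and with TGF-β1, and 14.6 ± 0.270 and 15.8 ± 1.45 CPM in the corresponding Smad7-KO libraries (SD, n = 3). All groups overlapped, and its 4 log2 fold changes lay between 0.02 and 0.14 with edgeR adjusted p values of 0.714 to 0.962. It overlaps the oppositely oriented Orc4, which had 552 to 1057 counts per library, and reads shared by both genes are uncertain because the strand setting of the counting is not given in the sources used here. Acvr2b (chr9:119402444-119433501, plus strand) was near the limit of the assay, with 22 to 71 counts per library. It was at 1.61, 1.43 and 2.07 CPM in unstimulated control and at 2.92, 2.49 and 3.08 CPM in unstimulated Smad7-KO libraries. The groups did not overlap. Its log2 fold change of 0.72 (SE 0.243; edgeR adjusted p = 0.0483) was called in only 2 of the 12 fits that left out a library and under 5 of the 10 other settings, and had an adjusted p of 0.0586 with a replicate block. After TGF-β1 the difference was 0.62 (edgeR adjusted p = 0.129). TGF-β1 gave −0.40 in control (edgeR adjusted p = 0.428) and −0.51 in Smad7-KO cells (edgeR adjusted p = 0.265).

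Gdf15 (chr8:70629393-70632456, minus strand) fell with TGF-β1. Unstimulated control libraries were at 44.7, 78.5 and 31.4 CPM and TGF-β1 control libraries at 18.5, 27.7 and 22.7 CPM. Although the unstimulated libraries were widely scattered, none reached down to the stimulated ones. The level dropped to 44.6% (log2 fold change −1.16, SE 0.269; edgeR adjusted p = 0.0187). This call was lost without TGF-β1 control library 1 (edgeR adjusted p = 0.0901) or library 3 (edgeR adjusted p = 0.0759), and with edgeR on these 6 libraries alone (adjusted p = 0.176). In Smad7-KO cells the libraries were at 33.1, 38.9 and 37.8 CPM without and at 18.9, 20.1 and 20.1 CPM with TGF-β1. These groups were tight and far apart. The drop to 53.8% was not called (−0.89, SE 0.269; edgeR adjusted p = 0.0586), but it was called under 8 of the 10 other settings, including a replicate block (adjusted p = 0.0379) and edgeR on these 6 libraries alone (adjusted p = 2.1e-06). Between Smad7-KO and control cells Gdf15 was not called (−0.49, edgeR adjusted p = 0.173 and −0.22, edgeR adjusted p = 0.601). The unstimulated difference was −0.74 without unstimulated control library 3 (edgeR adjusted p = 0.0106) and −0.05 without library 2 (edgeR adjusted p = 0.857). It was 0.13 with the length trend and library 2 both removed, and it was not called there. In each control condition its order over the libraries was the reverse of that of the difference between long and short genes. The most similar profiles were those of Mgst3 (0.17), Mid1ip1 (0.17) and Casp4 (0.18), beside a spread of 0.60 for Gdf15.

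Stress genes and known regulators of Gdf15 were counted beside it, 1 of 16 being called with TGF-β1 in each genotype, against 8.37% and 10.2% of all genes. Bbc3, a p53 target that promotes apoptosis, was the only gene called in control cells (log2 fold change −0.79, edgeR adjusted p = 0.00603), and the immediate early gene Egr1 the only gene called in Smad7-KO cells (1.12, edgeR adjusted p = 0.00128). In unstimulated Smad7-KO cells 5 of the 16 were called lower than in control and 1 higher, against 13.7% and 12.1% of all genes. Egr1 (−1.28), the amino acid response factor Atf4 (−0.76) and its targets Asns (−0.71) and Chac1 (−0.87) were among the lower genes. After TGF-β1, Chac1 (−1.45), Trib3 (−0.98) and Asns (−0.62) were called lower and the oxidative stress factor Nfe2l2 (0.42) higher, against 7.23% and 5.72% of all genes. Median log2 fold changes of the 16 were −0.06, −0.07, −0.16 and −0.17 in the 4 comparisons, beside −0.03, −0.01, −0.02 and −0.02 over all genes tested.

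Per length and within a library, ligand and antagonist transcripts were compared as ratios, and none of the 20 ratio comparisons passed an adjusted p of 0.05, which this design cannot reach. Ratios of FPKM, the deposited values scaled for gene length and library total, were used because scaling to the library total cancels in them. A library's trend on gene length does not cancel. Inhbb, Fst and Inhba lie in the longest, middle and shortest length classes. For Smad7-KO in unstimulated cells these classes had median log2 fold changes of 0.29, −0.01 and −0.39. The ratios were not corrected for that trend. Inhbb per Fst ranged over 0.669 to 0.982 in unstimulated control and 0.193 to 0.209 in TGF-β1 control libraries. It ranged over 3.07 to 3.60 in unstimulated and 0.504 to 0.547 in TGF-β1 Smad7-KO libraries. All 4 conditions were separate from each other. Log2 ratios differed by −2.02 and −2.64 with TGF-β1 in control and Smad7-KO cells, and by 1.98 and 1.37 between Smad7-KO and control cells without and with TGF-β1. Each had a two-sided exact permutation p of 0.1, the smallest that 3 libraries against 3 allow, and 0.133 after Benjamini-Hochberg adjustment over the 20 ratio comparisons made.

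Inhba per Fst ranged over 0.240 to 1.85 in unstimulated control, 0.306 to 0.663 in TGF-β1 control, 3.87 to 6.19 in unstimulated Smad7-KO and 1.13 to 1.75 in TGF-β1 Smad7-KO libraries. Unstimulated Smad7-KO libraries were above all others. The log2 ratio was 2.65 higher in Smad7-KO than in control cells without stimulation and 1.58 higher with it, and it was 1.77 lower with TGF-β1 in Smad7-KO cells (two-sided exact permutation p = 0.1 each, adjusted 0.133). In control cells TGF-β1 changed it by −0.70 with overlapping libraries (exact permutation p = 0.5). The summed subunits per summed Fst and Fstl3 had mean log2 ratios of 0.28 ± 0.61, −1.22 ± 0.38, 2.11 ± 0.19 and −0.09 ± 0.17 (SD, n = 3) in the order of conditions above. No groups overlapped in the 4 comparisons (exact permutation p = 0.1 each, adjusted 0.133). These are ratios of transcripts, and protein was not measured in these files.

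**Figure D4:**
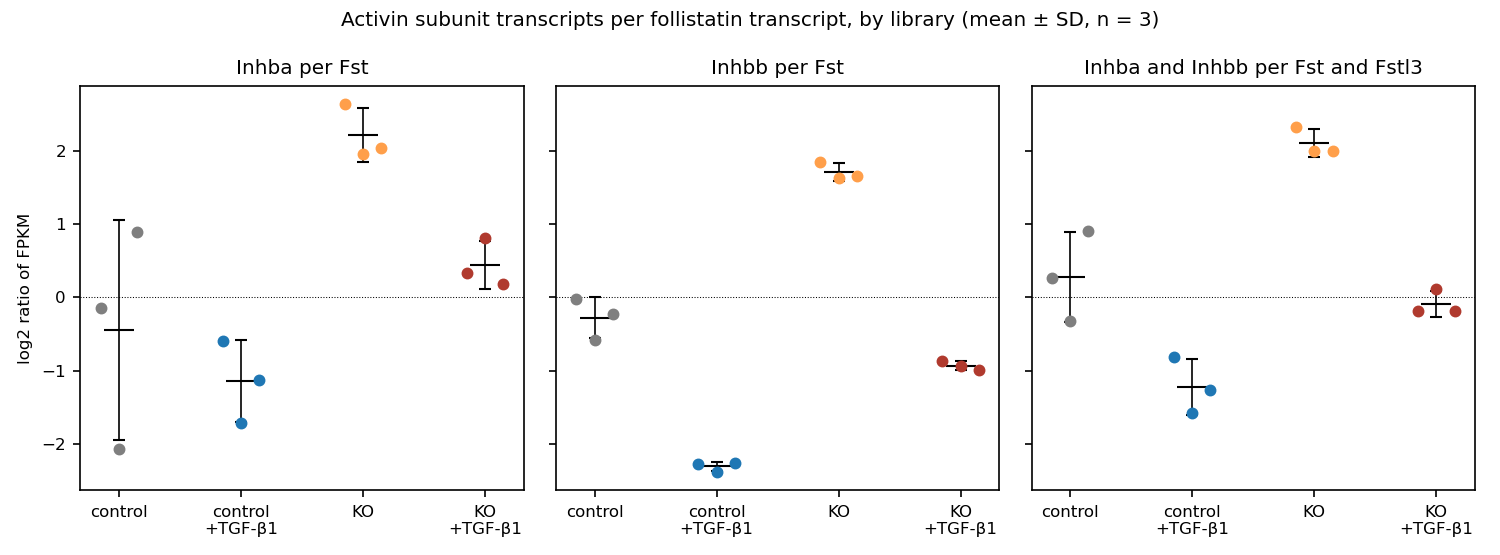
Log2 ratio of FPKM in every library, with the mean ± SD (n = 3) of each condition and a dotted line at equal levels, for Inhba per Fst, Inhbb per Fst and the summed subunits per summed Fst and Fstl3. Unstimulated Smad7-KO libraries are highest in each panel (means of 2.21, 1.71 and 2.11), and TGF-β1 control libraries have the lowest means (−1.14, −2.30 and −1.22).

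In FPKM, Fstl1 was the highest and Acvr2b the lowest of the 10 genes in each condition. Fstl1 averaged 261 ± 69.2 and 406 ± 27.9 FPKM in control libraries without and with TGF-β1, and 228 ± 7.35 and 314 ± 16.5 FPKM in the corresponding Smad7-KO libraries. Acvr2b averaged 0.986, 0.760, 1.65 and 1.13 FPKM in the same order. Second rank passed from Gdf15 (32.5 FPKM) in unstimulated control to Fst (34.9) in TGF-β1 control and to Inhba in both Smad7-KO conditions (30.4 and 21.7). In unstimulated control, Gdf15 was followed by Fst, Inhba, Inhbb, Acvr1, Fstl3 and Acvr1b, whose neighbors overlapped in range, and Acvr2a came ninth. In unstimulated Smad7-KO libraries Fst had moved to seventh, at 6.57 FPKM, below Inhba, Gdf15, Inhbb, Acvr1 and Acvr1b. In TGF-β1 Smad7-KO libraries Fstl3 and Fst stood side by side at 15.9 FPKM each, with overlapping ranges.

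Whether the response to TGF-β1 differed between Smad7-KO and control cells was tested by the interaction. None of the 10 genes was called by edgeR, and 0 of the 10 had an unadjusted p under 0.05. Of all genes tested, 3, or 0.0198%, were called, and 392, or 2.59%, had an unadjusted p under 0.05. DESeq2 and limma also called 0 of the 10. Fst responded by 0.37 more in Smad7-KO cells on the log2 scale (SE 0.183, edgeR unadjusted p = 0.0644) and the fall of Inhbb was larger there, with an interaction of −0.25 (SE 0.122, edgeR unadjusted p = 0.0663). Neither passed the test. Inhba, at −0.36, had an SE of 0.701. The SE was also large for Fstl3 (0.416) and Gdf15 (0.377). Even the interaction of Smad7, 0.42 with an SE of 0.13, had an edgeR adjusted p of 0.98. A missing call therefore does not show that the responses were equal.

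A wider list of 44 genes of the pathway, of which 31 were tested, was counted beside the 10. With TGF-β1, 3 of the 31 were called higher in control cells and 4 in Smad7-KO cells, against 5.04% and 5.33% of all genes, and 0 lower, against 3.33% and 4.9%. Tgfbr1, the type I receptor of TGF-β, rose by 1.15 and 1.13 on the log2 scale in control and Smad7-KO cells (edgeR adjusted p = 0.00482 and 0.00447). Furin, a convertase that cleaves the precursors of TGF-β family ligands, rose by 1.07 and 0.89, and the BMP type II receptor Bmpr2 by 0.75 in each. Bambi, a pseudoreceptor that blocks signaling, rose in Smad7-KO cells (1.05, edgeR adjusted p = 0.0194). In Smad7-KO cells 8 genes were lower and 2 higher than in control without stimulation, against 13.7% and 12.1% of all genes, and 9 lower and 0 higher with it, against 7.23% and 5.72%. The higher pair was Tgfbr1 (0.64, edgeR adjusted p = 0.0445) and Furin (0.66, edgeR adjusted p = 0.0396). Inha, the inhibin α subunit that pairs with β subunits to form inhibins, was named after its values were seen. It was lower in both states (−1.20 and −1.03, edgeR adjusted p = 0.0161 and 0.0424), at 4.13 and 3.22 CPM in unstimulated and TGF-β1 control and 1.78 and 1.56 CPM in the Smad7-KO libraries. Median log2 fold changes of the 31 were 0.04, −0.04, −0.13 and −0.18 in the 4 comparisons, beside −0.03, −0.01, −0.02 and −0.02 over all genes tested. Counts over the fits that left out a library ranged over 2 to 7, 1 to 9, 6 to 18 and 4 to 13.

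Fstl1, itself not called between genotypes, belongs to the SPARC family. Of its 5 tested relatives 3 were called lower in unstimulated and 4 in TGF-β1-stimulated Smad7-KO cells, against 13.7% and 7.23% of all genes, and no test of the family was made. Smoc1, a matricellular BMP antagonist, averaged 145 ± 14.2 and 148 ± 8.12 CPM in unstimulated and TGF-β1 control libraries and 52.0 ± 4.07 and 53.9 ± 1.77 CPM in the Smad7-KO libraries (log2 fold changes −1.48 and −1.46, edgeR adjusted p = 9.02e-06 and 1.2e-05). Smoc2 was lower by similar amounts (−1.49 and −1.13). Sparc, a collagen-binding matricellular protein, was called after TGF-β1 (−0.48, edgeR adjusted p = 0.0312). Sparcl1, with condition means of 0.774 to 2.54 CPM, was lower in both states (−0.77 and −1.72, edgeR adjusted p = 0.0433 and 0.00195). The convertase Pcsk5 was lower in both states (−1.04 in each, edgeR adjusted p = 0.00118 and 0.00153), and Pcsk6 after TGF-β1 (−0.54). Acvrl1, a type I receptor known from endothelial cells, was lower in both states (−0.47 and −0.30, edgeR adjusted p = 0.00457 and 0.0462), as was the receptor-binding immunophilin Fkbp1a (−0.90 and −0.70, edgeR adjusted p = 0.0123 and 0.0464). Bambi was lower without stimulation (−1.17, edgeR adjusted p = 0.00864). The differences between the genotypes in markers of several cell types accompany each of these differences too. None of the 31 genes was called for the interaction by edgeR, DESeq2 or limma. In edgeR 2 had an unadjusted p under 0.05, against 2.59% of all genes.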

How the data were processed

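Poly(A) RNA of mouse cardiac fibroblasts was sequenced in 12 libraries, 3 in each of 4 conditions. The authors deposited unnormalized read counts for 35275 genes and FPKM values, which were recovered from each gene's count and length and the sum of each library. The submitters' processing notes name CASAVA, TopHat2 2.0, Cufflinks 2.1.1, HTSeq 0.6.1, mm10 and GRCm38.p6. The strand setting and whether replicates came from separate cultures are not given in the sources used here, so p values measure the spread between these libraries, which may be technical. The study used DESeq2.

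Counts were fitted with edgeR 4.0.16 in R 4.3.3 over all 12 libraries, after filterByExpr with a minimum count of 10 and TMM scaling, by the robust quasi-likelihood test with Benjamini-Hochberg adjustment, and 15150 genes were tested. An adjusted p of at most 0.05 made a call. Totals of 19056916 to 25371321 counts per library set the counting precision. Replicate libraries differed by more than counting noise (chi-square per gene of 3.15 to 254), and none was merged. Alternatives were DESeq2 1.42.0 on all or on 6 libraries, edgeR on 6 libraries, DESeq2's size factors, no filter, limma 3.58.1 on log2(FPKM + 1) where 3 libraries or more reached an FPKM of 1, a block for replicate number, a loess of span 0.3 on gene length removed from each library, both of these together, and each library left out. After seeing the data, the length trend was also removed without unstimulated control library 2. Scripts were tested on simulated data. Promoters were read from RefSeq (GRCm38.p6), and motif letters were searched on both strands of the 250 bases upstream.

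The 10 genes, the wider lists and the markers were chosen with earlier results of these data known. Named genes were all 10, Smad7, at most 6 called genes per comparison with the lowest adjusted p from the pathway list and at most 4 from the stress list, and the 3 genes most alike in profile with a mean log2 CPM of at least 1. Inha and the further values of Tgfbr1, Furin, Sparcl1, Acvrl1 and Fkbp1a in other comparisons lie outside that rule.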

Additional observations from a re-analysis of the deposited data

How the results depend on the processing

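No called value of the 10 genes changed sign under any alternative. Of 600 values with 1 library left out, 562 kept their side of the threshold, 24 lost and 14 gained a call. Of 480 values under the other settings these numbers were 432, 14 and 34. Values called in neither fit changed sign in 20 and 26 of these cases. The number of the 10 genes called for TGF-β1 in control cells was 6, and 2 with edgeR on its 6 libraries. For Smad7-KO in unstimulated cells it was 3, and 1 with edgeR on its 6 libraries, 5 with the length trend removed, with or without a replicate block, and 5 with that trend and unstimulated control library 2 both removed. For Smad7-KO in TGF-β1 cells it was 1, and 2 with DESeq2, with DESeq2's size factors or with the length trend removed, with or without the block, 5 with DESeq2 or edgeR on its 6 libraries, and 6 with both removals. With 1 library left out the counts ranged over 4 to 7 and 4 to 6 for TGF-β1 in control and Smad7-KO cells, and over 2 to 6 and 1 to 5 for Smad7-KO in unstimulated and TGF-β1 cells. Without unstimulated control library 2 the last pair were 5 and 5, and without library 3 they were 6 and 2. Calls over all genes moved too. For Smad7-KO in unstimulated cells they numbered 7979 without library 3 and 660 with edgeR on its 6 libraries. For Smad7-KO in TGF-β1 cells they numbered 5530 with both removals, and for TGF-β1 in control cells 391 with edgeR on its 6 libraries. The other alternatives are not set beside all genes here, so these counts are not read as results about the 10 genes. The causes of these moves were not tested. Over all genes the calls ranged from 391 to 3449 and 985 to 3792 with TGF-β1 and from 660 to 7979 and 883 to 5530 with Smad7-KO, and from 0 to 21 for the interaction, against 1268, 1550, 3907, 1962 and 3 in the reported fit. Of the 31 other genes of the pathway, 0 to 7 and 3 to 12 were called with TGF-β1 and 3 to 14 and 6 to 16 with Smad7-KO over the settings that kept every library or removed the length trend. With the replicate number as a block the counts of the 10 genes were 6, 5, 2, 1 and 0 in the 4 comparisons and the interaction. Whether equal replicate numbers mark paired libraries is not known. Deviations from the group mean were correlated above 0.1 in 1 of 18 same-number pairs (range −0.36 to 0.52, beside −0.56 to 0.55 for other pairs). That pair was control library 2 without and with TGF-β1, which had the lowest long-minus-short differences of their groups (−1.09 and −0.41). Such correlations also carry this library property, so they cannot decide on pairing. Smad7 kept its call in all 22 alternatives of each of the 4 comparisons, with log2 fold changes of −1.52 to −1.20 and −0.98 to −0.86 for Smad7-KO. The Inhba per Fst difference, with 1 library left out, ranged over −1.51 to −0.04 and −1.95 to −1.56 with TGF-β1 and over 1.84 to 3.31 and 1.30 to 1.85 with Smad7-KO, and could not be tested below an exact p of 0.1. Counting error weighs most on Acvr2b, which had 22 to 71 counts per library.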
